A study of Homo sapiens and Mus musculus with 6 samples.

Results

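Promoter Capture Hi-C (CHi-C) in mouse embryonic stem cells (mESCs) gave 2356 pairs of HindIII fragments that lay on one chromosome with their midpoints 1 Mb or more and under 10 Mb apart. These were 2.50% of the 94150 fragment pairs listed for mESCs, and the whole series lists 182817 pairs over both species. Each fragment pair was counted once, whichever of its ends it was called from. A further 90710 mESC pairs spanned under 1 Mb, 533 spanned over 10 Mb and 551 joined different chromosomes. The last pair left out below the limit spanned 0.999884 Mb and the first kept spanned 1.00047 Mb. The longest kept spanned 9.723 Mb, and the shortest pair over 10 Mb spanned 10.2053 Mb.

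The cells were J1 embryonic stem cells of the 129S4/SvJae strain, grown with serum on irradiated fibroblast feeders, which were removed by passaging at harvest. Promoter CHi-C was done on 2 biological replicates and Hi-C on 1 library of mESCs. GM12878, a human lymphoblastoid line of B lymphocyte origin, was assayed by promoter CHi-C in 3 biological replicates and serves here only for 1 comparison. The labels name no treatment and no mutation for any of them, and J1 is a single line. The files hold contacts and no expression, so the labelled cell type could not be checked against marker genes. The interactions were called by the authors on the replicates together, so the lists used here hold no spread between replicates. The intervals given are 95% intervals (Wilson for a share, Newcombe for a difference) that cover counting error only, and pairs that share a bait or lie side by side are not independent. The total number of read pairs of each library was not used here, and the depth behind a pair is given by its read count, a rounded mean over the replicates.

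In promoter CHi-C, chromatin is cross-linked, cut, ligated and enriched with RNA baits against promoter fragments, so that each pair has a baited fragment and an other end that may or may not be baited itself. Random collisions between fragments become rarer with distance, and a pair is called when its reads sufficiently exceed the number expected at its distance. The p-values are also weighted by distance, so that the test is more stringent for longer pairs. In embryonic stem cells the genes of developmental regulators such as the Hox, Pax, Fox and Tbx families are largely silent, and their CpG-rich promoters are known targets of the Polycomb repressive complexes. Neither Polycomb binding nor transcription was measured in these data. Replication-dependent histone genes, which supply histones during DNA synthesis, are known to gather at a nuclear body, and the mouse genome holds most of them in 1 large locus.

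Genes of developmental regulators and of replication-dependent histones stood at the ends far more often than most promoters. A baited fragment was listed if any call held it, the pairs counted here included. The paper captured more baits than are listed, and those without a call are in no share given here. Of the 17157 baited fragments that the mESC list holds, 1235 stood at an end of such a pair, a share of 7.20%. Against this, 26 of 31 Hox baits (83.9%, interval 67.4 to 92.9%) and 25 of 33 histone baits (75.8%, 59.0 to 87.2%) stood at one. Over the 7 lists of developmental transcription factors, 149 of 315 baits (47.3%, 41.9 to 52.8%) did so. These factors stood at an end of 632 pairs (26.8%) and histone genes at an end of 217 pairs (9.21%), while 1142 pairs held no gene of any list.

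Sequences are shown because the share of promoter pairs called went with the CG content of the baits. They come from fragments at strong developmental pairs, from the Hist1h4i end of the strongest histone pair and from the pair with the highest score. Each is the 150-base window of its fragment with the most CG outside annotated exons, on the plus strand of mm9, with every CG in capitals. Fev (chr1:74931996-74932145) and Pax3 (chr1:78193071-78193220) formed a pair on chromosome 1, with Pax3 on the homeobox list, and the Fev window ends upstream of the Fev start while the Pax3 window lies in an intron of Pax3:
Fev: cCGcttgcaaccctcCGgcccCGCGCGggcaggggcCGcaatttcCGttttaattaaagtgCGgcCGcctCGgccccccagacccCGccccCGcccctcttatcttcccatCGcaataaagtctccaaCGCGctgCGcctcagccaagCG
Pax3: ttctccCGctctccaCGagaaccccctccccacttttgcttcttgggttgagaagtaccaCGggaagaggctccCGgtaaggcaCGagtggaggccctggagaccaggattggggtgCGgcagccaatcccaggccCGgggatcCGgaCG

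Shh (chr5:28790951-28791100, in an intron of Shh and of 9530036O11Rik) and Mnx1 (chr5:29805101-29805250, upstream of Mnx1) formed a pair on chromosome 5:
Shh: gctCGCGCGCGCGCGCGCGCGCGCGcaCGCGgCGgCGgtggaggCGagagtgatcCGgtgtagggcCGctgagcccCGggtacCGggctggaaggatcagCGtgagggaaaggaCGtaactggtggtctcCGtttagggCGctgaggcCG
Mnx1: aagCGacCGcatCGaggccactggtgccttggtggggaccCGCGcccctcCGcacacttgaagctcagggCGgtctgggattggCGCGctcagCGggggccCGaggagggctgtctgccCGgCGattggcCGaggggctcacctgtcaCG

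On chromosome 2 a bait listed only as uce, a name that the files do not spell out, lies in the Dlx1 region (chr2:71373043-71373192, in an intron of Dlx1as) and was paired with Hoxd13 (chr2:74506191-74506340, upstream of Hoxd13):
uce: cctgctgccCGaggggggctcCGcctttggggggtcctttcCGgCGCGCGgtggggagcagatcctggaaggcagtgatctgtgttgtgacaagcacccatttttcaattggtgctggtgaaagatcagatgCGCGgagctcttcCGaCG
Hoxd13: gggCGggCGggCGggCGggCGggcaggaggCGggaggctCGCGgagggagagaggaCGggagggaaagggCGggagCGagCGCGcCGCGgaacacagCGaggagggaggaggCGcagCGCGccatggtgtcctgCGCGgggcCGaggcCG

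On chromosome 11 the partner of the Lhx1 promoter (chr11:84338939-84339088) with the highest score was a fragment within Tbx2 that no bait covered, and its window lies in an intron (chr11:85650396-85650545):
Lhx1: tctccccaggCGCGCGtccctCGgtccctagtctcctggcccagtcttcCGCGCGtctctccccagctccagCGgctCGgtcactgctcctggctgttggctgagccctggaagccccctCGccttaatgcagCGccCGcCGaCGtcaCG
Tbx2 intron: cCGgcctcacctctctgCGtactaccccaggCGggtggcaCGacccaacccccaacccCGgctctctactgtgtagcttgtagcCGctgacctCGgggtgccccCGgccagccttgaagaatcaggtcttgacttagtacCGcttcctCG

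The 8 windows above hold 9 to 25 CG. The window of the histone promoter Hist1h4i on chromosome 13 (chr13:22133222-22133371) holds 10 (22 in its densest window when exons are included), and those of Gm11062 (chr1:175208005-175208154) and 1810030J14Rik (chr1:176260141-176260290) on chromosome 1, the pair with the highest score, hold 3 and 2:
Hist1h4i: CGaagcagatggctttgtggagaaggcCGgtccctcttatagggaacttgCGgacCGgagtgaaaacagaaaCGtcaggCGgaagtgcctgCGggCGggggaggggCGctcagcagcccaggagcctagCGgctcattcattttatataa
Gm11062: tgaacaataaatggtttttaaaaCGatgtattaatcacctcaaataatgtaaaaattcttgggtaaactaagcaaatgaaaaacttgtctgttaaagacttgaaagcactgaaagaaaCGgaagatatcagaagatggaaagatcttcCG
1810030J14Rik: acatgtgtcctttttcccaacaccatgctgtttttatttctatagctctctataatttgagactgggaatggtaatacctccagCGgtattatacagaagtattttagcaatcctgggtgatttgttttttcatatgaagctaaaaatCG

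The pairs were mostly short for their class and rested on few reads. Their median distance was 1.54 Mb, with quartiles at 1.23 and 2.78 Mb. The median read count was 6, with quartiles at 5 and 8 and a range from 3 to 246, against a median of 13 for pairs under 1 Mb. The median CHiCAGO score, which grows as the weighted p-value of a pair falls and was at least 5 for every listed pair, was 7.65, with quartiles at 5.92 and 12.2. A score over 20 was reached by 264 pairs, and 135 pairs (5.73%) rested on 3 reads. Pairs with a developmental regulator had a median of 7 reads and a score of 9.71, and the remaining pairs 5 reads and 7.14.

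Both ends were baited in 884 pairs (37.5%, interval 35.6 to 39.5%). With each pair of 100-kb areas counted once the share was 65.6%. The share over all pairs was 6.45 percentage points above that of pairs under 1 Mb (31.1%, interval of the difference 4.49 to 8.45), and differed from that of pairs over 10 Mb (37.0%) by 0.56 points, with an interval from -4.04 to 5.01. Of the 884, 386 (43.7%) had been called from both ends. Among the 2156 fragments at an end, 1235 were baited and 921 were not. Most baits, 796 of them, had a single pair, 273 had 2 to 4, 111 had 5 to 9, and 55 had 10 or more.

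Developmental regulators took a larger share of the pairs at each longer distance within the class. They stood at an end of 4.21% of pairs under 100 kb and 4.57% of pairs of 100 kb to 1 Mb. Within the class they stood at an end of 303 of 1585 pairs spanning 1 to 2 Mb (19.1%). At 2 to 5 Mb this was 241 of 607 pairs (39.7%), and beyond 5 Mb 88 of 164 (53.7%). Pairs over 10 Mb reached 60.0%, and the interval of this share, 55.8 to 64.1%, overlapped that of 5 to 10 Mb, 46.0 to 61.1%. Over the whole class the share of 26.8% exceeded that of pairs under 1 Mb by 22.4 points (20.6 to 24.2) and differed from that of pairs over 10 Mb by -33.2 points (-37.6 to -28.6). The read counts moved with distance as well, and the share of pairs on 4 reads or fewer was 20.8% at 1 to 2 Mb, 28.8% at 2 to 5 Mb and 40.2% at 5 to 10 Mb. Their part in the trend was not tested.

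**Figure D1:**
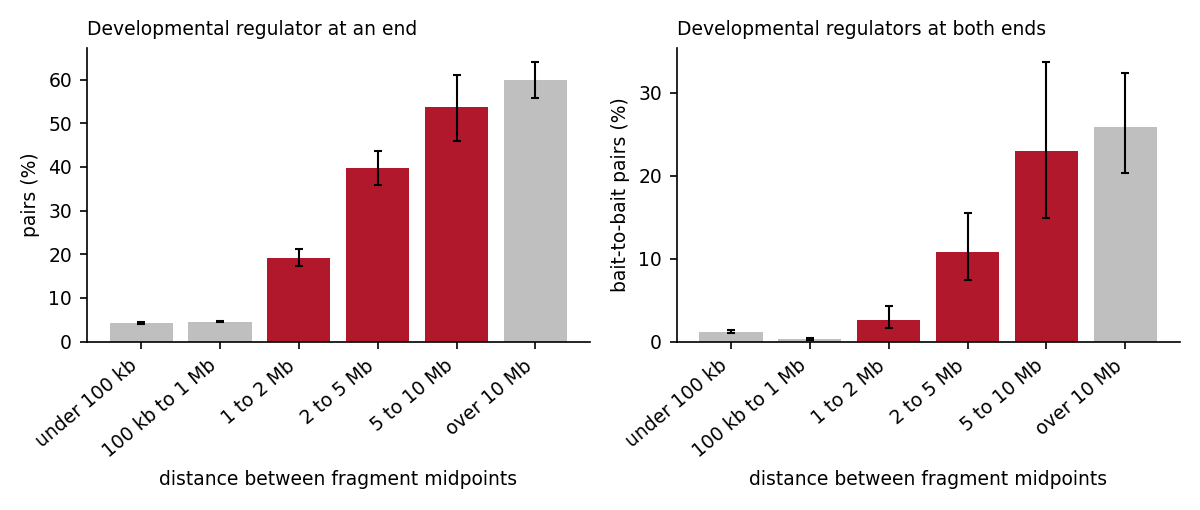
Share of mESC pairs with a developmental regulator at an end (left, percent of pairs) and with developmental regulators at both ends (right, percent of bait-to-bait pairs) by distance between fragment midpoints. Bars are shares of 1 joint set of calls, error bars are Wilson 95% intervals, and red bars are the 3 distance ranges of the 1 to 10 Mb class, where the left share goes from 19.1% to 53.7%.

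Promoters of developmental regulators also stood at both ends together. This was so in 57 bait-to-bait pairs (6.45%, interval 5.01 to 8.26%), and in 12.6% of those with a score of at least 10. The share of 6.45% was 5.83 points (4.39 to 7.65) above the 0.617% of pairs under 1 Mb and differed by -19.4 points (-26.1 to -13.5) from the 25.9% of pairs over 10 Mb. The 57 pairs were spread over 14 chromosomes, with a median distance of 3.14 Mb, a median of 8 reads (range 3 to 46) and a median score of 12.8, and 47 of them had been called from both ends. A pair of factors of the homeobox list other than Hox, which act as sequence-specific regulators of patterning, accounted for 16. A member of that list with a member of the list of zinc finger and related developmental factors accounted for 11. Hox promoters met bHLH promoters in 6 pairs and other homeobox promoters in 5. Each Hox cluster is much shorter than 1 Mb, so no pair of this class lies within a cluster.

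The 57 pairs joined genes of many factor families. Otx1, a homeobox factor of the forebrain, met the homeobox factor Meis1 (2.98 Mb, score 16.25, 8 reads), and Lhx6 met Lhx2, both LIM homeobox factors (2.24 Mb, 11.82, 6 reads). Otp, a homeobox factor of the hypothalamus, met the forkhead gene Foxd1 (3.48 Mb, 29.94, 13 reads), and Sox21 met Zic2, a zinc finger factor of the neural tube (4.24 Mb, 17.08, 9 reads). Olig2, the bHLH factor of oligodendrocytes and motor neurons, met Sim2 (2.86 Mb, 17.41, 7 reads). Hmx2 met Ebf3 (5.81 Mb, 31.11, 13 reads), Insm1 met Pax1 (1.14 Mb, 25.52, 15 reads), and Prdm8 met Nkx6-1 (3.48 Mb, 16.91, 10 reads). The T-box gene Tbx18 met Zic4 and Zic1, which lie side by side (3.63 Mb, 29.43 on 12 and 28.78 on 11 reads). On chromosome 13, Tcfap2a, a factor of neural crest and skin, met Barx1 (7.93 Mb, 16.74, 8 reads), and Barx1 met both Pitx1 (7.17 Mb, 9.66, 6 reads) and Neurog1 (7.59 Mb, 15.35, 8 reads).

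The number of promoter pairs that could have been called was counted among the listed baits, which leaves out captured baits without a call. Of 342 pairs of developmental baits that lie 1 to 10 Mb apart, 57 were called (16.7%, interval 13.1 to 21.0%). With a developmental regulator at 1 end the count was 207 of 42633 (0.486%), and with none 620 of 1216001 (0.0510%). The share with both ends developmental was 327 times that with neither, a difference of 16.6 points (13.04 to 20.9). The share of developmental pairs called was 27.8% at 1 to 2 Mb, 18.9% at 2 to 5 Mb and 10.9% at 5 to 10 Mb, and that of the pairs with neither was 0.263%, 0.0274% and 0.00556%. Counting each pair of 100-kb areas once gave 46 of 276 (16.7%) against 0.142%.

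The CG content of the baits went with these shares. The CpG observed/expected ratio compares the number of CG in a fragment with that expected from its C and G content. Where both developmental baits had a ratio of 0.4 or more, 49 of 152 possible pairs were called (32.2%, 25.3 to 40.0%). Where only 1 of them did, 8 of 149 were (5.37%, 2.75 to 10.2%), and where neither did 0 of 41, which allows a share of up to 7.32%. Among pairs with no developmental bait the shares were 0.208%, 0.0560% and 0.0257% for 2, 1 and 0 such baits, so that the developmental pairs stood above them where 2 or 1 of the baits had such a ratio.

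**Figure D2:**
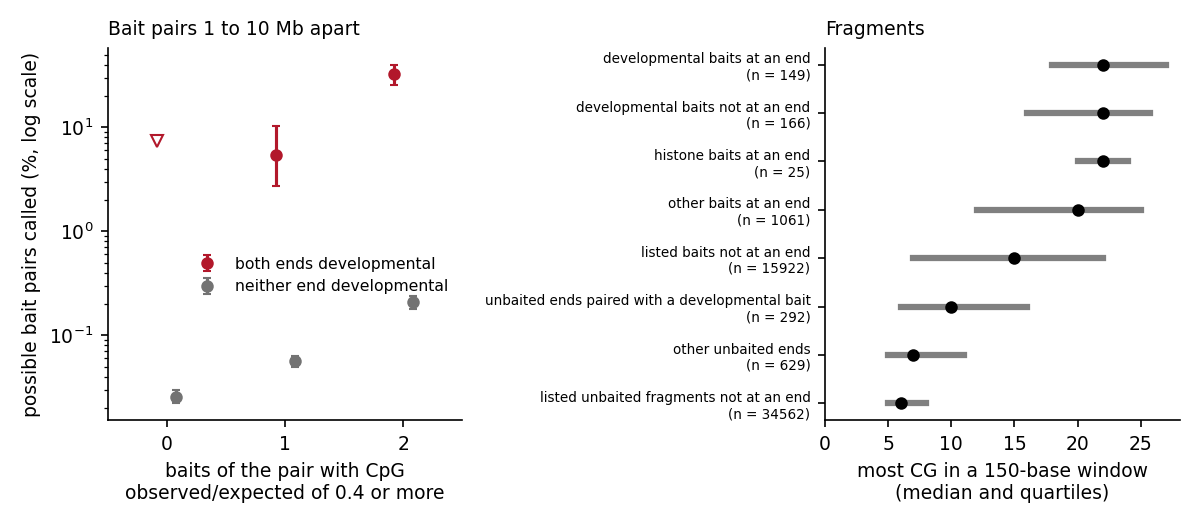
Left, percent of possible bait pairs 1 to 10 Mb apart that were called (log axis), by the number of baits with a CpG observed/expected ratio of 0.4 or more, with Wilson 95% intervals; the open triangle is the limit of 7.32% for 0 of 41 pairs. Right, median (point) and quartiles (bar) of the most CG in a 150-base window of a fragment, which was 22 for developmental baits at an end and not at an end, and 10 for the unbaited ends paired with them, against 6 for listed unbaited fragments not at an end.

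The ends themselves were rich in CG. The median CpG observed/expected ratio was 0.558 in the 149 developmental baits at an end, 0.442 in the 166 developmental baits not at an end, and 0.292 in all listed baits not at an end. The unbaited ends paired with developmental baits were high as well, with a median of 0.335, and 39.7% of these 292 fragments had a ratio of 0.4 or more, against 3.08% of the 34562 listed unbaited fragments not at an end. A 150-base window with 10 or more CG was found in 98.0% of developmental baits at an end and 88.0% of those not at an end, in 80.3% of the other baits at an end and 63.0% of all listed baits not at an end. It was found in 53.4% of the unbaited ends paired with developmental baits, 31.8% of the other unbaited ends and 15.0% of listed unbaited fragments not at an end. Of these 292 unbaited ends, 39 overlapped an annotated transcription start, 73 another exon and 59 an intron, and 121 were intergenic. The core motif of CTCF, a factor bound at many domain borders, was searched on both strands and matched in 9.15% of baited ends against 8.46% of listed baits, in 5.32% of unbaited ends against 6.95% of unbaited fragments not at an end, and in 1.65% of all 823373 HindIII fragments of mm9. The fragments differed in length, with medians of 5685 bases for baited ends, 5764 for listed baits, 3437 for unbaited ends, 3807 for unbaited fragments not at an end and 2128 for all.

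By family, after Hox and the histones, the lists with the largest shares of baits at an end were the other homeobox factors (58 of 116, 50.0%), the zinc finger and related developmental factors (27 of 55, 49.1%), the forkhead factors (15 of 35, 42.9%) and the T-box factors (6 of 15, 40.0%). The developmental bHLH factors, many of which drive neurogenesis, had 13 of 46 baits at an end (28.3%), and the Sox factors 4 of 17 (23.5%). Among signalling genes, 4 of 11 Fgf ligands, 7 of 25 members of the Bmp, Gdf and hedgehog list and 5 of 19 Wnt ligands stood at an end. The lower bounds of the Sox, Fgf, Bmp and Wnt intervals were 9.56, 15.2, 14.3 and 11.8%, all above the share over every listed bait. Without a list, the symbol stems with the most baits at an end were Hist (25 of 35), Zfp (24 of 226), Olfr (23 of 530), uce (17 of 114) and Mir (15 of 206). Developmental stems, picked from those below, included Hoxc (7 of 7), Hoxd (6 of 6), Lhx (6 of 8), Nkx (7 of 11) and Dlx (4 of 5). Foxd and Neurog had 3 of 3 each and Zic 3 of 4, while Hoxb had 6 of 11, Pax 5 of 10, Irx 3 of 6 and Sox 4 of 18. Some other small stems were high too, such as Btn (2 of 2) and Adra (2 of 3).

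The number of contacts under 1 Mb differed between the lists as well. Its median was 36 per Hox bait, 16 per histone bait and 8 per developmental bait, against 4 over every listed bait. Clustered protocadherin baits, with a median of 16.5, had none of 20 at an end, and keratin baits, with a median of 13, had 5.41%. Baits named uce had a median of 2 with 14.9% at an end, and Fgf baits a median of 4 with 36.4%. The part of this number in the shares was not tested.

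**Figure D3:**
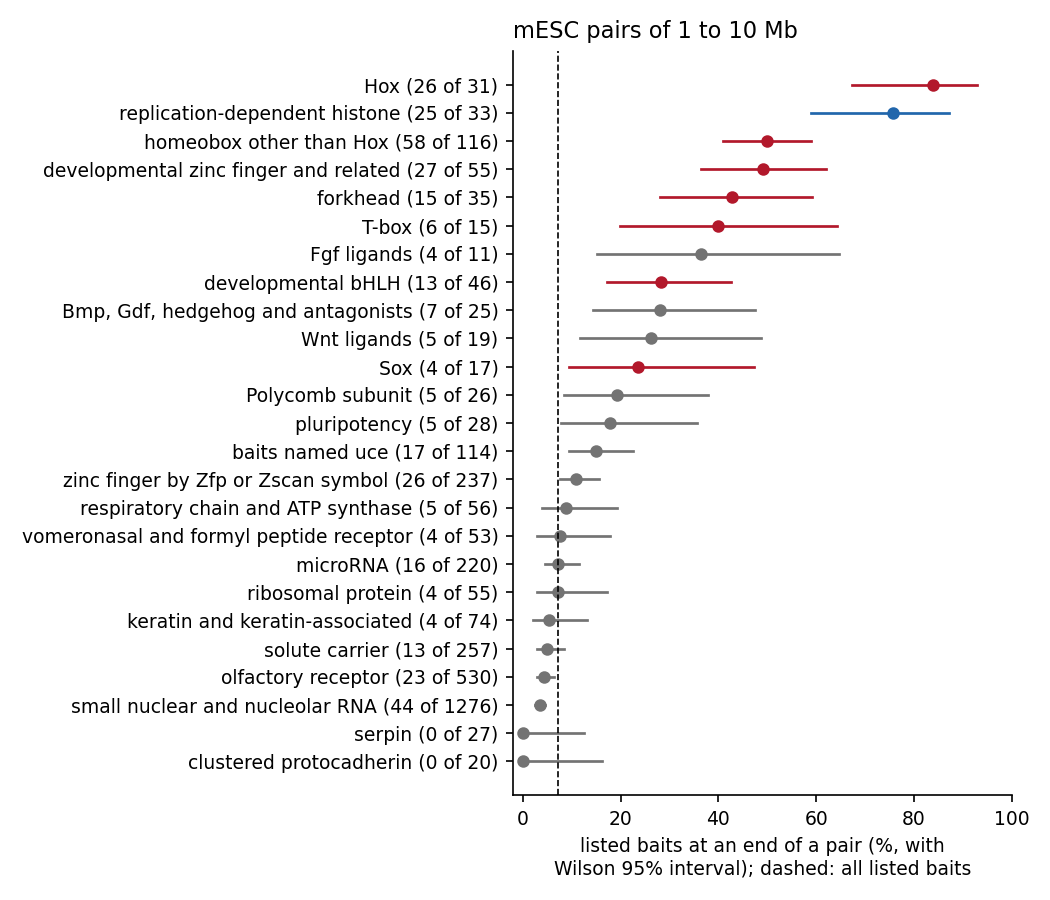
Percent of the listed baits of each gene list that stood at an end of an mESC pair of 1 to 10 Mb, with Wilson 95% intervals and counts beside the names. Developmental lists are red and histones blue, the dashed line is the 7.20% of all listed baits, and the Hox list is highest at 83.9%.

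Most other families stayed near or below the share of all baits. Of 237 baits named by a Zfp or Zscan symbol, 26 stood at an end (10.97%, 7.597 to 15.6%), and of 220 microRNA baits 16 did (7.27%). Olfactory receptors, a large family of clustered sensory genes, had 23 of 530 (4.34%, 2.91 to 6.43%), and small nuclear and nucleolar RNAs 44 of 1276 (3.45%, 2.58 to 4.597%). None of 27 serpin baits and none of 20 clustered protocadherin baits did, with upper bounds of 12.5% and 16.1%. Ribosomal protein genes (4 of 55), respiratory chain genes (5 of 56) and solute carriers (13 of 257) had shares of 7.27, 8.93 and 5.06%. The pluripotency list had 5 of 28 (Klf4, Nanog, Prdm14, Tbx3 and Utf1) and the Polycomb subunits 5 of 26, shares of 17.9 and 19.2%. Prdm14 and Tbx3 are on the developmental lists too. The lower bounds of the pluripotency and Polycomb shares, 7.88 and 8.51%, lay just above the share of all baits, as that of the Zfp and Zscan genes did. Of 114 baits named uce, 17 did (14.9%, 9.52 to 22.6%). Vomeronasal and formyl peptide receptors had 4 of 53 and keratin genes 4 of 74.

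The strongest pairs of the other lists ranged widely in score. Among ligands, Fgf8 was paired with Nkx2-3 (2.13 Mb, score 9.58, 7 reads), and the U6.54 bait, a small nuclear RNA beside Mnx1, was paired with Shh (1.02 Mb, 76.13, 48 reads) and En2 (1.31 Mb, 43.05, 22 reads). Zfp184 in the histone locus was paired with Abt1 (1.48 Mb, 48.03, 19 reads). In the pluripotency list Tbx3, which is also a T-box gene, was paired with Tesc (1.64 Mb, 35.75, 21 reads). Olfr20 and Olfr412 each met an unbaited intergenic fragment on chromosome 11 (1.02 Mb, score 10.64 and 1.13 Mb, 10.58). Slc35d3 and Myb, a factor of blood progenitors, scored 9.12 on 6 reads at 1.31 Mb, and Ndufb10 with Fam173a 7.68 on 7 reads at 1.06 Mb. Rps15 with Dohh scored 7.33 on 6 reads at 1.096 Mb.

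The highest score of all, 757.66 on 246 reads, belonged to Gm11062 and 1810030J14Rik, which lie 1.05 Mb apart on chromosome 1 and called the pair from both ends. An unbaited fragment in an exon of Gm11062 paired with 1810030J14Rik on 76 reads (score 243.21). An unbaited fragment in an intron of Defb34 and the promoter of Defb15, both beta-defensin genes, 3.92 Mb away, scored 504.42 on 107 reads, and an unbaited intergenic fragment and the promoter of Bbs4, a gene of the cilium complex BBSome, 3.34 Mb away, scored 340.34 on 78 reads. None of these 4 pairs lay in a Hi-C bin pair with an excess of reads. When both ends of each pair were aligned with blastn, 38 of the 2356 (1.61%) shared 100 bp or more at 95% identity or higher, and none of the 10 pairs with the highest score and none of those with a developmental regulator was among them.

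The next 6 scores all had a developmental gene at an end, and 5 of these pairs are described. Hrk, which codes for an activator of apoptosis, and Tbx3, a T-box factor of limb and heart development that also acts in mESCs, lay 1.5005 Mb apart on chromosome 5 (score 122.32, 68 reads). Hrk was also paired with Lhx5, a LIM homeobox factor of the forebrain, 2.26 Mb away (105.33, 50 reads). Fev, an ETS factor of serotonin neurons, and Pax3, a factor of neural crest and muscle precursors, lay 3.26 Mb apart (116.61, 37 reads). Shh, the hedgehog ligand, and Mnx1, a homeobox factor of motor neurons, lay 1.01 Mb apart (113.54, 74 reads). Hmx2, a homeobox factor of the inner ear, was paired at 1.09 Mb with the bait named Gm16764, whose fragment overlaps the homeobox gene Nkx1-2 (108.17, 69 reads). Each of these 5 was called from both ends.

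**Figure D4:**
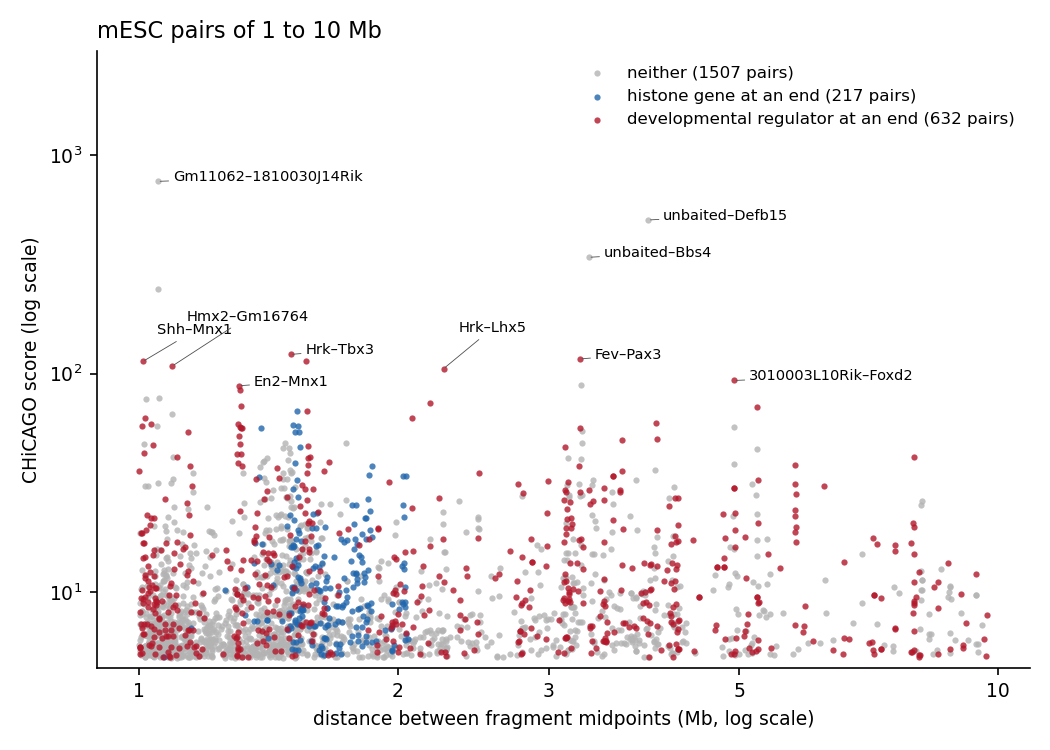
CHiCAGO score (log axis) against distance between fragment midpoints in Mb (log axis) for the 2356 mESC pairs of 1 to 10 Mb, 1 point a pair. Red points have a developmental regulator at an end (632), blue points a histone gene (217) and grey points neither (1507), and the highest point is Gm11062 with 1810030J14Rik at 757.66.

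The Hox clusters, whose genes set positional identity along the body axis, each had partners of their own. On chromosome 2, 40 pairs joined the Hoxd cluster to 8 fragments, at a median of 3.16 Mb and on 3 to 19 reads. The bait named uce in the Dlx1 region took part in 10 of these, with Hoxd13 first (3.13 Mb, score 46.09, 19 reads), and Dlx1, a homeobox factor of forebrain interneurons, and Dlx1as in 7 each. Sp9, a zinc finger factor of the limb and forebrain, was the partner in 6. The Dlx1 region and Sp9 were joined to each other as well, and uce and Sp9, 1.74 Mb apart, scored 48.2 on 24 reads. On chromosome 15, 45 pairs joined the Hoxc cluster to 13 fragments at a median of 4.16 Mb, among them Wnt10b in 9 and Wnt1 in 7, both Wnt ligands, Dnajc22 in 7 and Dhh, a hedgehog ligand, in 2. The highest was Wnt10b with Mir196a-2, a microRNA within the cluster (4.20 Mb, score 30.37, 12 reads).

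On chromosome 6, 6 of the 47 pairs of the Hoxa cluster were bait-to-bait, and most of the unbaited partners lay side by side in an intergenic stretch about 1.04 Mb away whose nearest annotated start is Mir148a. The zinc finger gene Zfp467 was the partner in 5 pairs, and with Mir196b, a microRNA of the cluster, it scored 32.43 on 13 reads at 3.79 Mb. On chromosome 11 the Hoxb cluster had 8 pairs, of which 7 were with Neurod2, a bHLH factor of neurons, 1.97 to 2.05 Mb away, and Hoxb7 with Neurod2 was the highest of them (score 15.27, 14 reads). The clusters also differed in the Hi-C library, where 44 of the 45 Hoxc pairs lay in an enriched bin pair and none of the 47 Hoxa, 8 Hoxb or 40 Hoxd pairs did. These pairs fell in few bin pairs. The network with Wnt10b and Hoxc genes spanned 2 bin pairs, of which 1 was enriched.

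The pairs formed 466 networks of fragments joined directly or through others, of which 337 were single pairs of 2 fragments and 36 held 10 fragments or more. Of the 36 large networks 28 held a developmental bait, beside 16 of the 337 single pairs. Developmental baits were 315 of the 17157 listed. Larger networks hold more baits and so more often hold one of any kind, and the part of size was not tested. The 5 networks with the most fragments held 773 pairs, 32.8% of all.

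The largest was the histone locus on chromosome 13 (mm9, 21253524 to 24925731), with 151 fragments and 424 pairs. Its histone baits at an end lie in 2 groups of 8 and 17, with 1.49 Mb between the nearest baits of the groups, Hist1h4i and Hist1h4h, and 422 of the 424 pairs had their ends on opposite sides of the middle of that stretch. The stretch holds other ends, Abt1 among them. Each of the 2 groups spans under 1 Mb, so no pair of this class joins 2 histone baits of 1 group. The distance limit thus favours pairs across the stretch. Histone genes stood at both ends of 61 pairs, at 1 end of 156 and at neither end of 207. Every class was present, with 4 of 4 baits of linker histone H1 at an end, 5 of 6 of H2A, 4 of 6 of H2B, 4 of 4 of H3 and 8 of 8 of H4. The strongest pair, Hist1h4i with Hist1h2ae at 1.53 Mb, scored 67.26 on 24 reads.

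Of the possible bait pairs of this locus 1 to 10 Mb apart, 61 of 152 with histones at both ends were called (40.1%, 32.7 to 48.1%), against 28 of 928 (3.02%, 2.10 to 4.33%) with a histone at 1 end and 15 of 982 (1.53%, 0.928 to 2.50%) with none. The limits of the locus were set by the called pairs of the network themselves. The groups were not matched for distance, with which the share called fell elsewhere. Histone genes are near copies of each other, so the pairs were split by shared sequence. Of the 61 pairs 26 shared 100 bp or more at 95% identity or higher in the blastn search. The other 35 did not, but may share shorter or less similar sequence, which the search did not count. The strongest pair, Hist1h4i with Hist1h2ae, shared 448 bp at 95.3% identity. The highest of the 35 below the cut, Hist1h4i with Hist1h2bf, scored 57.46 on 19 reads. Its 2 fragments also cover the H2A genes Hist1h2ag and Hist1h2ad, so the split does not separate pairs free of related sequence. The baits with the most pairs were nevertheless not all histones. Abt1, a nuclear protein gene, had 68 pairs at 1.37 to 2.26 Mb, and the butyrophilin genes Btn2a2 and Btn1a1 had 39 and 37, followed by Hist1h2bl with 36, Hist1h4i with 35, Hist1h4h with 34, the protease gene Prss16 with 28, the zinc finger gene Zfp184 with 27 and Hist1h2ae with 26. Among unbaited fragments 6 had 9 or 10 baited partners, of which 4 lay in this locus, 1 overlapped Dlx1 and 1 was nearest to Olfr412.

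**Figure D5:**
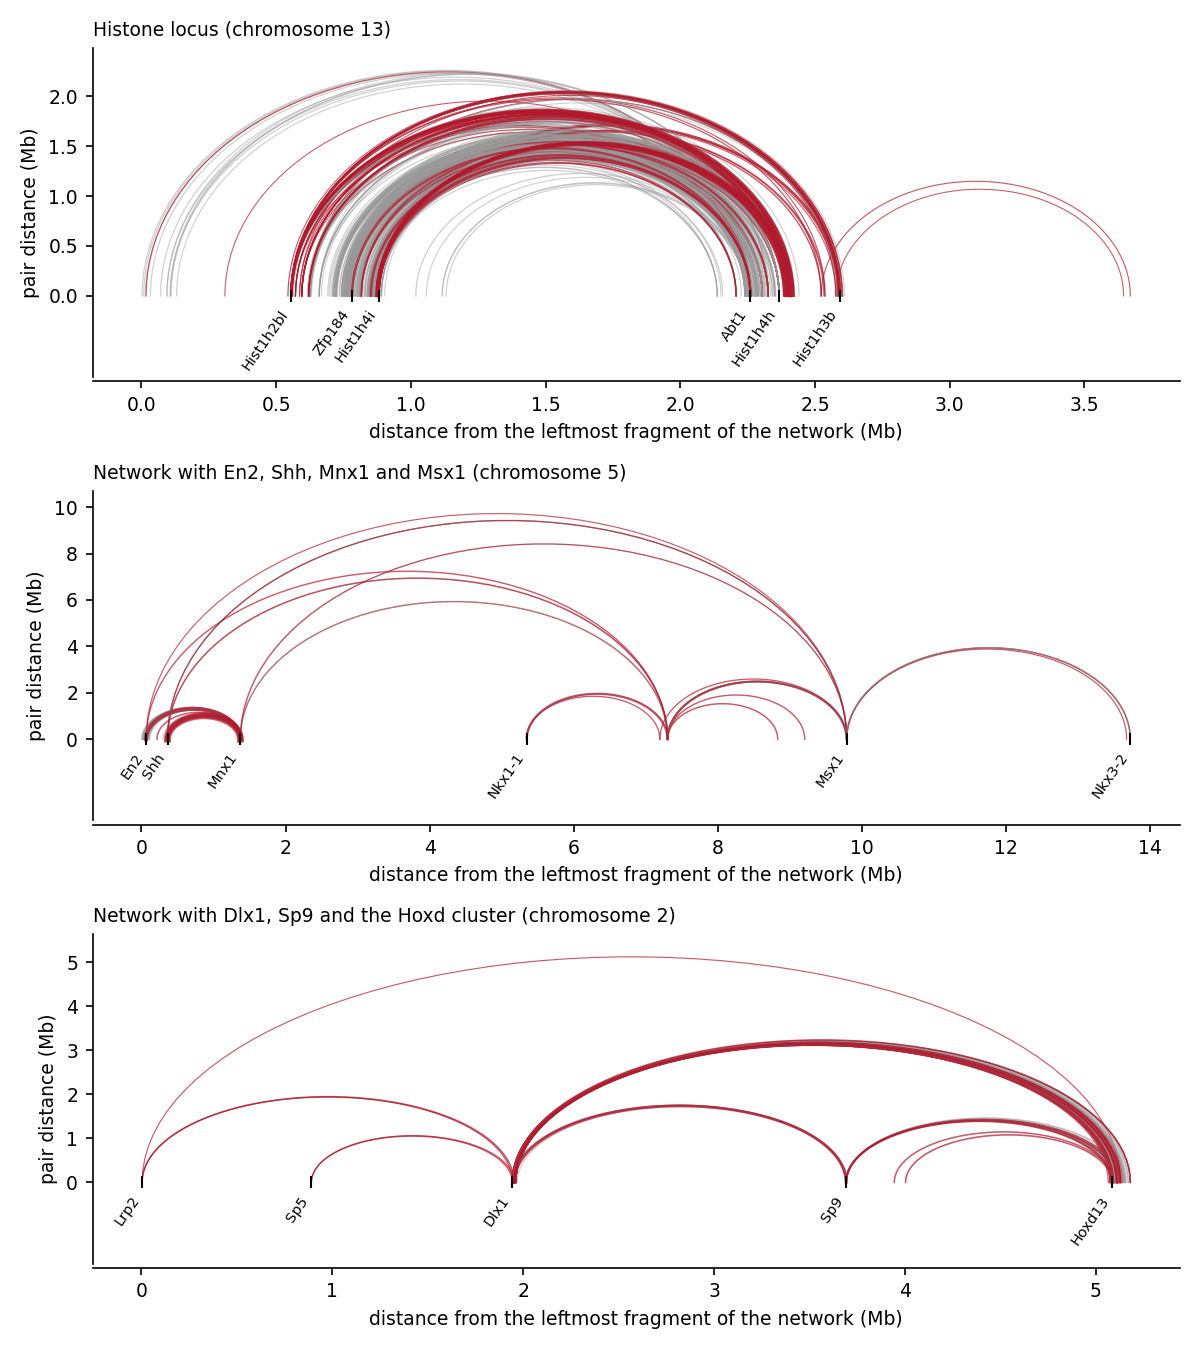
Pairs of 3 networks drawn as arcs over the distance in Mb from the leftmost fragment of each, with the height of an arc equal to the distance between its ends. Red arcs are bait-to-bait pairs, grey arcs have an unbaited end, and line width grows with the read count. In the histone locus 422 of the 424 pairs have their ends on opposite sides of the middle of the 1.49 Mb between Hist1h4i and Hist1h4h. The histone baits at an end on each side span under 1 Mb, so the 1 Mb limit favours such pairs.

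The network on chromosome 5 held Shh, En2, Mnx1, Nkx1-1, Msx1 and Nkx3-2 and joined 48 fragments by 81 pairs over 13.7 Mb. Mnx1 had 26 of these pairs, Shh 12, Msx1, a homeobox factor of tooth and limb, 9, and En2, a homeobox factor of the midbrain, 8. En2 and Mnx1, 1.31 Mb apart, scored 87.88 on 40 reads. En2 with Msx1 was the longest pair of the class at 9.72 Mb, on 4 reads (score 7.82), and Shh with Msx1 lay 9.43 Mb apart on 5 reads (12.14), each called from both ends. Of the 5 longest, the other 4 were Nkx2-3 with Mxi1 (9.70 Mb, 4 reads, score 5.09), Fezf2 with Zfp503 (9.63 Mb, 4 reads, 6.12) and unbaited fragments with Abcf1 (9.60 Mb, 4 reads, 7.1) and Mir877 (9.49 Mb, 4 reads, 5.79), all close to the limits of the read count and the score.

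On chromosome 4 a network of 44 fragments and 86 pairs was centred on Foxd2 with 18 pairs and Foxe3 with 17, 2 forkhead genes that lie beside each other. Foxd2 was paired with the bait 3010003L10Rik, whose fragment overlaps Dmrta2 (4.93 Mb, score 92.95, 29 reads), with the cell cycle inhibitor gene Cdkn2c (5.24 Mb, 70.6, 23 reads) and with the homeobox gene Dmbx1 (1.03 Mb, 58.59, 31 reads). Tal1, a bHLH factor of blood formation, had 5 pairs there. The remaining 2 of the 5 networks held no bait of the developmental lists. That on chromosome 7 joined 114 fragments, 72 of them baited, by 119 pairs over 24.7 Mb, with weaker scores (median 6.06, highest 16.48 for Chmp2a with Snord23 at 2.90 Mb) and a median of 4 reads. Its baits with the most pairs were Plaur with 12, Cadm4 with 8, and U2af2 and Six5 with 7, the last being a homeobox gene that the lists left out. That on chromosome 11 joined 44 fragments by 63 pairs over 2.29 Mb, among them the olfactory receptor gene Olfr412 with 13 pairs and Aspa with 8.

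Further developmental loci had high scores. Lhx1 and the neighbouring T-box genes Tbx2 and Tbx4 were joined at 1.31 and 1.36 Mb, and Lhx1 with Tbx2 scored 51.84 on 32 reads, below the 83.73 on 37 reads of Lhx1 with the unbaited fragment in Tbx2. Nkx2-1, a homeobox factor of lung and thyroid, and Foxa1, a forkhead factor of endoderm, scored 57.43 on 27 reads at 1.01 Mb. Otx1 with Bcl11a scored 62.41 on 25 reads at 2.08 Mb, and Tbx18 with Rasgrf1 scored 73.0 on 31 reads at 2.18 Mb. Nkx2-3 with Pax2, a factor of the kidney, scored 53.86 on 30 reads at 1.14 Mb. The Polycomb gene Cbx8 was paired with the bait Gm11772, whose fragment overlaps Bahcc1, with a score of 24.43 on 14 reads at 1.20 Mb.

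Within this class of pairs the chromosomes were filled unevenly. Chromosome 13 held 519 pairs (22.0%), of which 217 had a histone gene, chromosome 7 held 241, chromosome 11 held 204 and chromosome 5 held 203. These chromosomes differ in listed baits. The share of listed baits at an end was 16.4% (104 of 636) on chromosome 13 and 11.8% (171 of 1448) on chromosome 7. It was 7.44% (119 of 1599) on chromosome 11 and 6.93% (68 of 981) on chromosome 5, near the 7.20% over all listed baits. Chromosome X held 3, with 4 of its 399 listed baits at an end (1.00%).

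Hi-C, which the choice of pairs did not use, was set beside the calls. The paper describes this Hi-C as a pre-capture dataset, so it may not be independent of the CHi-C libraries. The 1-Mb Hi-C list gives pairs of 1-Mb bins with more read pairs than expected from coverage and distance, and 9.99% of the 25390 bin pairs 1 to 10 bins apart on one chromosome passed an FDR under 0.05. Of the CHi-C pairs, 1262 lay within such a bin pair (53.6%, interval 51.5 to 55.6%). Their bin pairs held a median of 1590.5 Hi-C read pairs against 710.9 expected. The 2356 pairs fell in 524 bin pairs, of which 191 passed (36.5%). The share of pairs was 50.4% for bins next to each other and 54.6% for bins 2 apart, and it ranged from 28.1% to 87.5% for those 3 to 10 apart, against 21.7%, 14.6% and between 4.98 and 9.51% of all bin pairs.

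Pairs with a developmental regulator were less often within a Hi-C bin pair. The share was 35.8% (226 of 632), against 60.1% (1036 of 1724) of pairs without one, a difference of -24.3 points (-28.6 to -19.9). At 1 to 2 Mb the difference was -32.4 points (-37.6 to -26.6), and at 2 to 10 Mb -24.1 points (-30.8 to -17.1). Of the 57 pairs with developmental regulators at both ends, 14 (24.6%) were within one. The histone locus weighed on these values. Without chromosome 13 the shares were 36.5% and 47.2%. With each bin pair counted once in a group they were 28.3% (43 of 152) and 37.7% (of 443). Some of the 524 bin pairs held pairs of both kinds and count in both groups. By family, the share was 99.1% for histone genes, 94.9% for Wnt ligands, 50.7% for forkhead, 47.1% for T-box, 37.3% for other homeobox, 32.0% for Hox, 17.3% for the zinc finger list and 7.69% for Sox. Pairs in 1 bin pair are not separate observations here. The 424 pairs of the histone locus fell in 3 bin pairs, of which 2 passed. The 58 pairs of the network with Wnt1, Wnt10b and Hoxc genes fell in 2, of which 1 passed. Bait-to-bait pairs lay within a bin pair in 47.7% and others in 57.1%, a difference of -9.33 points (-13.5 to -5.16), which was -14.2 points (-19.2 to -9.09) at 1 to 2 Mb and -0.52 points (-7.59 to 6.47) at 2 to 10 Mb.

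Individual loci fell on both sides. The bin pair of Hrk, Tbx3 and Lhx5 held 2094 Hi-C read pairs against 710.9 expected, that of Shh, En2 and Mnx1 3874 against 2783, that of Fev and Pax3 571 against 356.6, that of Foxd2 and Cdkn2c 752 against 269.3, that of Wnt10b and the Hoxc genes 960 against 361.3, and the one that holds most of the histone pairs 3056 against 1765. Lhx1 with Tbx2, Hmx2 with Gm16764 and the Hoxd cluster with the Dlx1 region lay in no enriched bin pair. On chromosome 12, Itgb1bp1 had 18 pairs with a median of 3 reads and scores up to 10.1, of which 17 lay in an enriched bin pair, and in its network the median excess was 5.18 times the expected reads.

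In GM12878 the same distance class held 1214 of 88667 pairs. A developmental regulator stood at an end of 36 of them (2.97%), against 26.8% in mESCs, a difference of 23.9 points (21.8 to 25.9), and none had one at both ends. Of 262 listed developmental baits 14 stood at an end (5.34%), beside 4.12% of all 16616 listed baits. Histone genes stood at an end of 428 pairs (35.3%), against 9.21% in mESCs, a difference of -26.0 points (-29.0 to -23.1), while 38 of 46 listed histone baits stood at an end (82.6%), beside 25 of 33 (75.8%) in mESCs. The cell types differ in species, capture baits, number of replicates and culture, and the part of each in these differences cannot be told apart.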

How the data were processed

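Promoter CHi-C of 2 biological replicates of mESCs and 3 of GM12878, and Hi-C of 1 mESC library, were analysed from the lists that the authors deposited. Reads had been mapped with HiCUP, to mm9 for mESCs, and the submitters' processing notes name Bowtie 1.1.0 and HOMER 4.7. CHiCAGO was run by the authors on all replicates together. The deposited score is a soft-thresholded negative log of the weighted p-value, with 5 as its minimum, and the read number beside it is a mean weighted by sample size factors and rounded. For Hi-C the authors deposited the count of read pairs of each 1-Mb bin pair, the signal that HOMER expected and p-values adjusted with the Benjamini-Hochberg method (FDR).

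Calls were reduced to fragment pairs, and a pair called from both ends kept its higher score and read count. A bait was taken as listed if any call holds it, and genes were named as the list names its baits. All 52640 listed fragments matched a HindIII digest of mm9, whose GENCODE vM1 annotation gave starts, exons and introns. Shares have Wilson and differences Newcombe 95% intervals, and a count of 0 allows 3 counts. The pair table and the intervals were tested on simulated data. Alternatives were the score, read and FDR thresholds, the browser list of the same calls, the distance measure, shared sequence (blastn 2.17.0), 100-kb areas, the direction of the call and the densest chromosome. Naming baits by annotated start, counting bin pairs once, the list of baits named uce and older symbols were added after the values were seen.

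The pairs, gene lists and comparisons were chosen with earlier results of these data known. Named by rule were the 10 pairs with the highest score, the 5 on the most reads, the 5 longest, the 10 baits with the most pairs, the 5 unbaited fragments with the most baited partners, the 2 best pairs of each list with at least 5 pairs and genes of the 5 largest networks. Loci named beyond it (partners of the Hox clusters, further developmental loci and Itgb1bp1) were chosen after their values were seen. A few pairs that the rule picks are not reported here. Python 3.11.15, numpy 2.4.6, pandas 2.3.3, scipy 1.17.1 and networkx 3.6.1 were used.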

Additional observations from a re-analysis of the deposited data

How the results depend on the processing

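Of 54 recomputed values, 29 stayed within the 95% interval of the value reported (for the number of pairs, within 1.5 times) and 25 did not. With the browser list, the distance between nearest fragment ends, pairs that share sequence left out, or an FDR under 0.01, none left it. The browser list holds the same calls and returned every value unchanged. An FDR under 0.01 and every listed Hi-C bin pair both returned the same 53.6% in Hi-C. These settings are counted among the 29 but did not test the values. A score of at least 10 left 804 pairs, with a bait-to-bait share of 34.6%, a median distance of 1.58 Mb, a developmental regulator at an end of 37.8% and at both ends of 12.6%, 56.1% within a Hi-C bin pair and 4.55% of listed baits at an end. At least 5 reads gave 34.6%, 1.51 Mb, 31.4%, 8.41%, 50.5% and 5.05% for the same measures. Counting each pair of 100-kb areas once left 892, with 65.6% bait-to-bait, 1.499 Mb, 24.7% with a developmental regulator and 45.5% in Hi-C. Without chromosome 13 the shares were 40.5% bait-to-bait, 32.0% developmental and 43.8% in Hi-C. Naming baits by annotated start gave 30.9% and 9.50% for developmental regulators at an end and at both ends, counting each bin pair once gave 36.5% in Hi-C, and counting only calls from the bait's own side gave 6.09% of listed baits. No paired analysis was possible because the calls were made on all replicates jointly. Low read counts limit single pairs, since 24.2% rested on 4 reads or fewer.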
